A study of Mus musculus with 6 samples.

Results

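The immediate early genes followed here were measured in a brainstem and cerebellum dissection of wild-type mice and of mice whose genotype is labelled MSA Transgenic. They are 10, namely Egr1, Egr2, Egr3, Egr4, Atf3, Fos, Fosb, Junb, Arc and Npas4, taken as every non-control probe that carries 1 of these 10 names on the array, which gave 15 of 56605 probes. Each of the 10 genes had a probe well above background on all 6 arrays, and they make up 10 of the 24932 genes tested. Mice of both genotypes were 16 weeks old and of 1 mixed strain (C57BL/6, 129 and C3H). The labels do not spell out MSA, and they name neither the transgene nor the promoter that drives it. Total RNA of 3 wild-type and 3 transgenic samples was hybridised to single-colour arrays, 1 array per sample. Whether the samples of a genotype came from different mice is not said in the labels, and the p-values below cover only the spread from sample to sample, which may be technical.

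Immediate early genes are transcribed within minutes of a stimulus, without new protein synthesis, because the factors that switch them on (CREB on cyclic AMP response elements, serum response factor with its partners on CArG boxes) are already in the cell. Most of them encode transcription factors that go on to set a later wave of genes, and in brain they are read as marks of recent synaptic activity, injury or inflammatory signalling. Neurons are their best known source, but glia, microglia and vascular cells transcribe several of them as well. In a tissue extract, fewer cells of a type and less RNA per cell cannot be told apart.

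No member passed the test for a difference between the genotypes, at a Benjamini-Hochberg adjusted p under 0.05 with limma, where 0.0441% of all tested genes did. Egr2 was at 2.52 times its wild-type level (adjusted p = 0.0522) and Atf3 at 1.68 times (adjusted p = 0.119). Levels of Egr1, Egr2, Egr3, Atf3, Fosb and Junb did not overlap between the genotypes and were higher in all 3 transgenic samples, which is 6 of 10 members against 7.4% of all tested genes. None was separated in the lower direction (7.5% of all genes, 14.9% in either direction). Those 6 also had an unadjusted p under 0.05, against 3.15% of all tested genes in that direction and 2.71% in the lower one. At an adjusted p under 0.1, Egr2 alone of the members passed, as did 0.152% of all genes. Egr4, Fos, Arc and Npas4 overlapped. The fitted difference was above 0 for 9 members, as for 49.9% of all genes, and the median over the 10 members was 0.37 on the log2 scale, against -0.00049 over all genes.

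**Figure D1:**
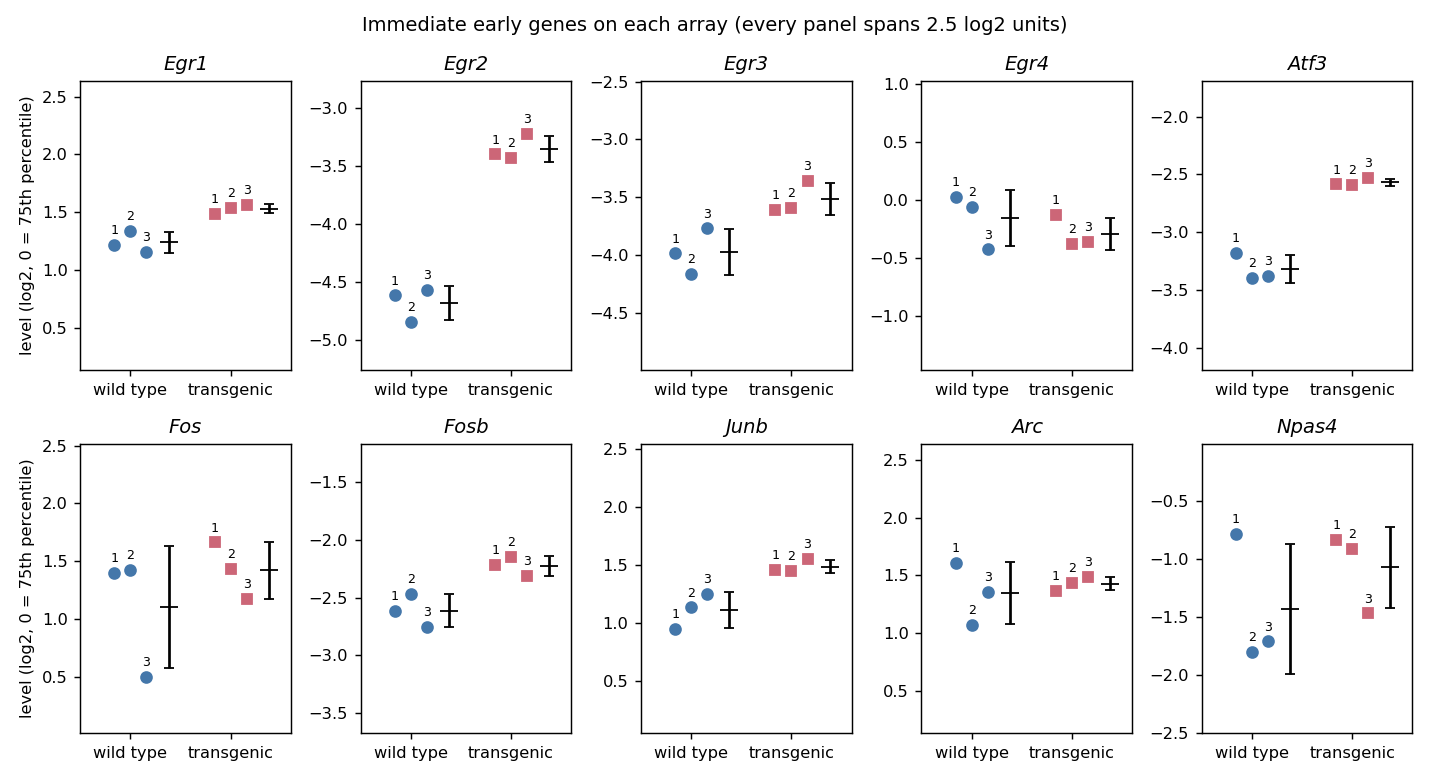
Level of each of the 10 genes on each array, as log2 processed signal relative to that array's 75th percentile; circles are wild-type and squares transgenic samples numbered by replicate, and the bar beside each group is its mean ± SD (n = 3). The transgenic squares lie above all wild-type circles for Egr1, Egr2, Egr3, Atf3, Fosb and Junb, with the widest gap, 1.15, for Egr2.

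Slide 1 held only wild-type replicate 1, and slide 2 held the remaining 5 arrays. The 75th percentile of that array of slide 1 was 405.7 intensity units against 535.0 to 609.2 on slide 2, and its correlation with the other arrays over 35552 probes was 0.979 to 0.984 against 0.992 to 0.997 among those on slide 2. Raw intensities below carry this difference in brightness. The scaled levels are log2 intensities minus the log2 of that percentile, so that 0 means the 75th percentile of an array. All differences are transgenic minus wild type on this scale, ± SE, with n = 3 per genotype. Levels of different probes cannot be ranked against each other, because each probe has its own brightness.

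The 4 EGR genes encode zinc-finger transcription factors that bind the same GC-rich element. Egr2 (Krox20) patterns the hindbrain in the embryo, drives myelination in Schwann cells and is induced in activated macrophages and lymphocytes. Its probe (mm9 chr10:67004758-67004817, plus strand) read 16.5, 19.5 and 22.5 intensity units in wild-type replicates 1, 2 and 3. In transgenic replicates 1, 2 and 3 it read 57.8, 55.1 and 64.8. All 3 transgenic values were thus above every wild-type value, and the scaled levels, -4.68 ± 0.15 in wild type and -3.35 ± 0.11 in transgenic samples (SD), kept a gap of 1.15 between the nearest arrays. The difference was 1.33 ± 0.11 (limma adjusted p = 0.0522, unadjusted p = 2.72e-05), the 13th smallest p among the tested genes. The wild-type values are dim: on the 6 arrays the lowest signal well above background was 9.14 to 10.6 intensity units. With normexp background correction and an offset of 50 intensity units the Egr2 difference was 0.33 (limma adjusted p = 0.496), and with an offset of 10 it was 0.74 (adjusted p = 0.197). It passed the threshold with array weights (adjusted p = 0.0138), with only probes well above background on all 6 arrays (0.0371) and when the tested probes of each gene were averaged (0.0355), all by limma. The filter and the averaging did not alter the values of its only probe, and the difference stayed at 1.33. Under these settings its adjusted p moved through the other genes in the fit.

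Egr1 (Zif268), the EGR gene most used as a mark of neuronal activity, gave 944.1, 1424 and 1196 intensity units in wild type. The transgenic samples gave 1709, 1719 and 1783. The transgenic values lay close together and above all wild-type values. The scaled levels were 1.24 ± 0.09 and 1.53 ± 0.04 (SD), a difference of 0.29 ± 0.08, or 1.22-fold, that did not pass the test (limma adjusted p = 0.672). Its probe lies at mm9 chr18:35024395-35024454 on the plus strand.

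Egr3, which Egr1-inducing signals also switch on and which acts in muscle spindles and in lymphocyte tolerance, has 3 probes that did not behave alike. The one with the highest level (mm9 chr14:70482361-70482420, plus strand) read 25.6, 31.4 and 39.2 in wild type. Transgenic samples read 50.01, 49.1 and 58.8. The groups did not overlap, with a difference of 0.45 ± 0.13 (1.37-fold, limma adjusted p = 0.677). With normexp and an offset of 50 this was 0.01, and with an offset of 10 it was 0.18. The second probe (chr14:70481979-70482038) was not well above background on any wild-type array, where it read 10.04, 10.5 and 6.14. All 3 transgenic arrays measured it, at 23.6, 20.1 and 20.5, so it entered the tested probes only through the transgenic group and its fitted difference is not given. Its 10.04 and 10.5 in wild-type replicates 1 and 2 exceeded the lowest signal well above background on those arrays, 9.14 and 9.39, and still did not count. That lowest signal is thus no detection limit for this probe, and no bound on its fold is given. The third probe (chr14:70478827-70478886) was not well above background on any array.

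Egr4, the EGR member most restricted to neurons, showed no such separation. Its probe (mm9 chr6:85461153-85461212, minus strand) read 413.9, 539.7 and 397.8 in wild type and 556.1, 454.3 and 468.9 in transgenic samples. After scaling, the wild-type levels were 0.03, -0.06 and -0.43 and the transgenic levels -0.13, -0.38 and -0.36, so the groups overlapped. The difference was -0.14 ± 0.15 (limma adjusted p = 0.828), the 1 member of the 10 below 0. It ran from -0.05 when wild-type replicate 1 was left out to -0.28 when wild-type replicate 3 was, and was -0.22 without transgenic replicate 1.

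Atf3, Fos, Fosb and Junb encode basic leucine zipper proteins. FOS and FOSB pair with JUN proteins to form AP-1, JUNB is one of those partners, and ATF3 is a stress-induced member that mostly represses and that injured neurons and macrophages switch on. Atf3 (mm9 chr1:192994547-192994606, minus strand) read 44.8, 53.6 and 51.4 intensity units in wild type and 101.4, 98.4 and 104.3 in transgenic samples. No transgenic value came near a wild-type one, and the transgenic levels differed little among themselves (-2.57 ± 0.03 against -3.32 ± 0.12, SD). The difference was 0.75 ± 0.09 (limma adjusted p = 0.119, the 45th smallest p). It passed the threshold with array weights alone (adjusted p = 0.0138), and with normexp at an offset of 50 it was 0.29 (adjusted p = 0.504).

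Junb read 782.4, 1233 and 1273 intensity units in wild type and 1672, 1613 and 1767 in transgenic samples at its brightest probe (mm9 chr8:87500843-87500902, minus strand). All transgenic values were above all wild-type values, by a difference of 0.37 ± 0.10 (1.296-fold, limma adjusted p = 0.648). This difference was 0.37 under normexp with either offset. A second Junb probe (chr8:87501881-87501940), well above background on 1 wild-type and 3 transgenic arrays, overlapped between genotypes at 0.11 ± 0.18 (adjusted p = 0.887 in limma's fit of each probe). The third (chr8:87496635-87496694) was well above background on 1 wild-type array and was not tested. With the mean of the tested probes the Junb difference was 0.24.

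Fosb, whose stable splice form builds up under repeated stimulation, read 66.1, 101.5 and 79.3 in wild type and 130.8, 133.8 and 121.5 in transgenic samples (mm9 chr7:19888168-19888227, minus strand). The transgenic samples were again all higher, with a difference of 0.39 ± 0.11 (1.31-fold, limma adjusted p = 0.617), which was 0.14 with normexp at an offset of 50. Another Fosb probe (chr7:19890146-19890205) was not well above background on any array, and the splice forms were not told apart here.

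Fos, the classic activity mark, had the widest spread within a genotype after Npas4. Its probe (mm9 chr12:86818118-86818177, plus strand) read 1068, 1513 and 756.3 in wild type and 1927, 1602 and 1358 in transgenic samples. Wild-type replicate 3 was low, with a scaled level of 0.50 against 1.40 and 1.43 in the other wild-type samples, and the transgenic samples spread from 1.17 to 1.66. The difference was 0.31 ± 0.29 (limma adjusted p = 0.818). It dropped to 0.01 when wild-type replicate 3 was left out, and was 0.20 when transgenic replicate 1 was and 0.47 when wild-type replicate 2 was.

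Arc and Npas4 are the most neuronal of the 10. ARC is a synaptic protein that removes AMPA receptors from the membrane, and NPAS4 is a transcription factor induced by calcium entry that adjusts inhibitory synapses. Arc (mm9 chr15:74499597-74499656, minus strand) read 1239, 1182 and 1371 in wild type and 1571, 1603 and 1689 in transgenic samples. These raw intensities do not overlap, but the scaled levels do, at 1.61, 1.07 and 1.36 against 1.37, 1.44 and 1.48. The difference of 0.08 ± 0.15 (limma adjusted p = 0.887) was 0.21 without wild-type replicate 1, turned to -0.05 without wild-type replicate 2 and was 0.04 with median scaling. Npas4 (mm9 chr19:4984356-4984415, minus strand) read 235.9, 161.2 and 163.5 in wild type and 341.8, 314.7 and 218.0 in transgenic samples. Wild-type replicate 1 stood above the other wild-type samples after scaling (-0.78 against -1.80 and -1.71), and transgenic replicate 3 below the other transgenic samples (-1.47 against -0.83 and -0.91). The difference of 0.36 ± 0.32 (limma adjusted p = 0.818) was 0.69 when wild-type replicate 1 was left out and 0.56 when transgenic replicate 3 was. It was 0.22 and 0.17 when wild-type replicate 3 or 2, in that order, was left out.

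**Figure D2:**
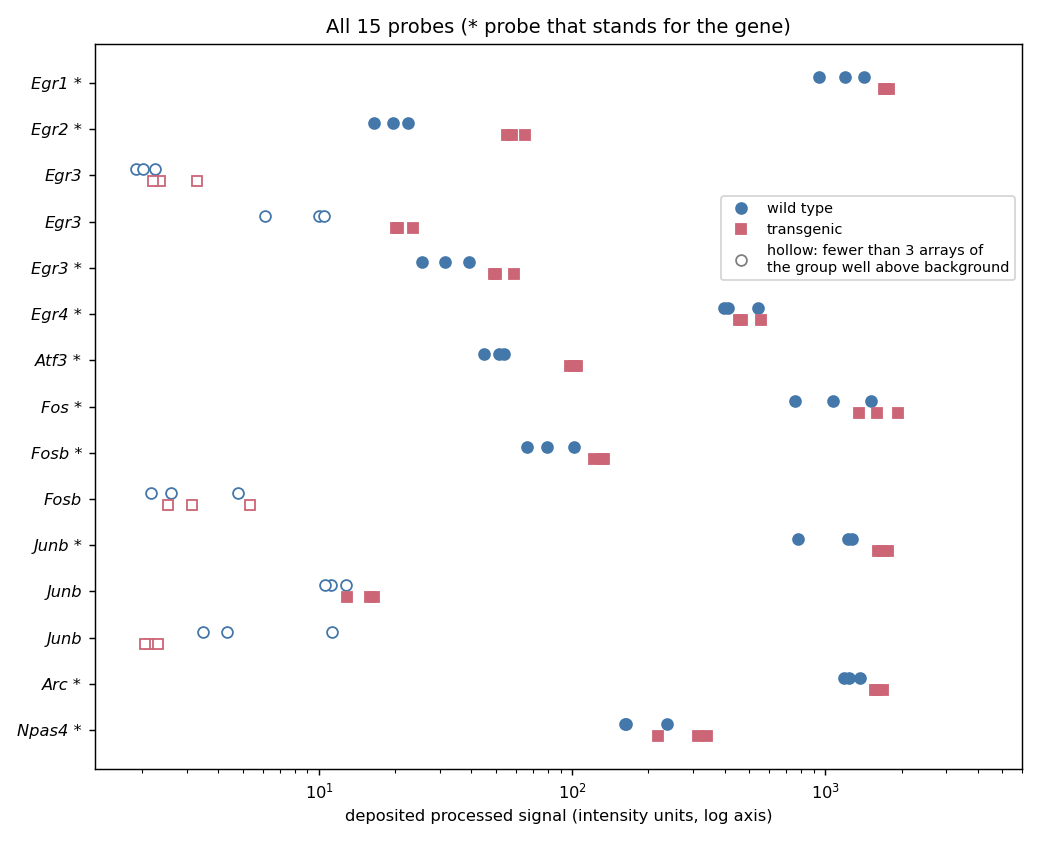
Deposited processed signal of all 15 probes of the 10 genes (log axis, intensity units), with circles for the 3 wild-type and squares for the 3 transgenic samples; hollow symbols mark a group with fewer than 3 arrays well above background, and an asterisk the probe that stands for the gene. The second Egr3 probe is hollow in wild type, at 6.14 to 10.5, and filled in transgenic samples, at 20.1 to 23.6; levels of different probes are not comparable.

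The spread among samples of a genotype set apart the members that separated from those that overlapped. Their residual SD on the log2 scale was 0.0700 to 0.170 for the 6 that separated and 0.195 to 0.468 for the 4 that overlapped, with a median of 0.151 over the 10 against 0.175 over all tested genes. Fos and Npas4 lay at the 83.6th and 87.1th percentile of residual SD among tested genes, and Egr1 at the 10.5th. The separation uses the same values as this spread, so the 2 measures are not independent.

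Among the 5 arrays of slide 2, 8 members, the same 6 with Arc and Npas4, were higher in all transgenic samples, against 13.01% of all genes. There the Egr2 difference was 1.36 and that of Atf3 0.82, both with a limma adjusted p of 0.0946. The other differences on that slide were 0.69 for Npas4, 0.46 for Fos, 0.45 for Egr3, 0.39 for Fosb, 0.29 for Junb, 0.28 for Egr1, 0.21 for Arc and -0.049 for Egr4. With the slide fitted as a block, Egr2 and Atf3 each had a limma adjusted p of 0.0818.

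**Figure D3:**
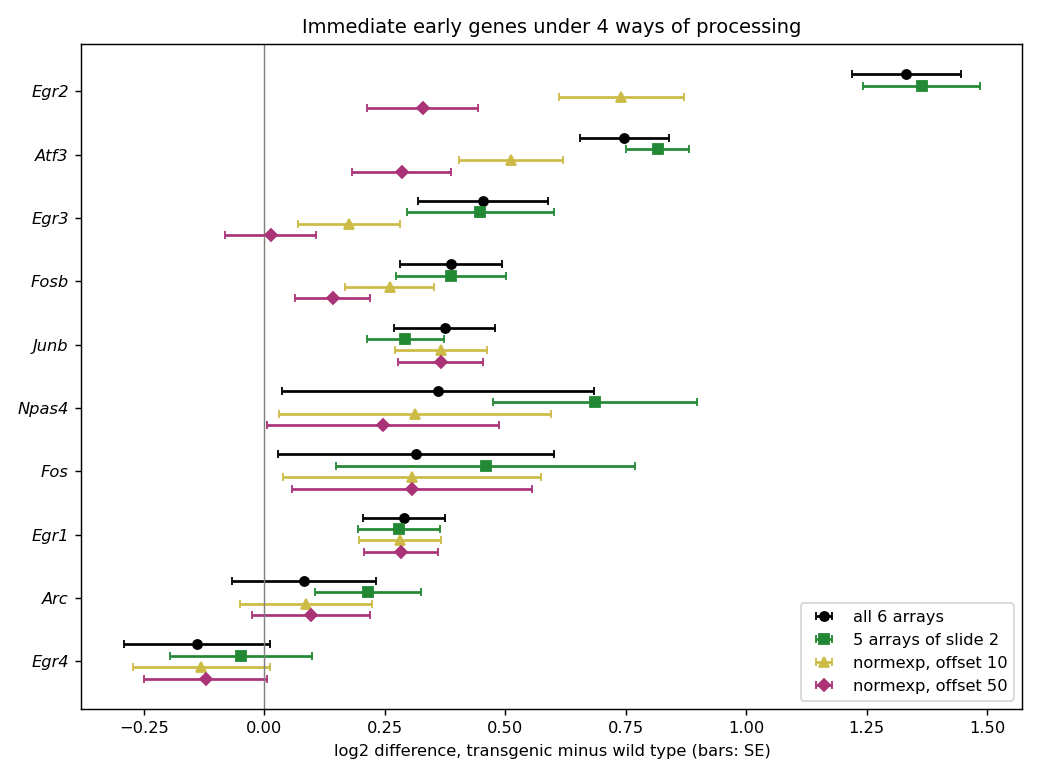
Difference between genotypes for each gene (log2, transgenic minus wild type, bars are SE) with all 6 arrays, with the 5 arrays of slide 2, and with normexp background correction at offsets of 10 and 50 intensity units. Egr2 moves from 1.33 to 0.33 and Egr3 from 0.45 to 0.01 at an offset of 50, while the brighter Junb, Egr1 and Fos keep 0.37, 0.28 and 0.31.

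The bases before the transcription start are shown for the pair of members with the largest differences, Egr2 and Atf3, and for a pair whose groups overlapped, Fos and Npas4. They come from RefSeq's promoter table (build GRCm38.p6), in which 7 of the 10 members were found (Egr2, Egr4, Atf3, Fos, Fosb, Junb and Npas4). For Egr2, for which several starts are listed, the stretch is chr10:67537793-67537822 (plus strand, 30 bases, its first base 76 bases upstream of one of the starts). The others are the 250 bases upstream of a start, at chr1:191183334-191183583 (minus strand) for Atf3, chr12:85473640-85473889 (plus strand) for Fos and chr19:4989972-4990221 (minus strand) for Npas4. Capitals mark the core of the cyclic AMP response element (TGACG on either strand, so CGTCA as well) and, in Egr2, the CArG box.
Egr2: cagtCCATATATGGgcagcgaCGTCAcggg
Atf3: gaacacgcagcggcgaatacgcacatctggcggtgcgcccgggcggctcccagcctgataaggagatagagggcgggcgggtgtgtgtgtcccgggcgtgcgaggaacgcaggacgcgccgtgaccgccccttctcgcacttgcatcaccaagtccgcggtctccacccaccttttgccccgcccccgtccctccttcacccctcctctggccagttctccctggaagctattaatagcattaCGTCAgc
Fos: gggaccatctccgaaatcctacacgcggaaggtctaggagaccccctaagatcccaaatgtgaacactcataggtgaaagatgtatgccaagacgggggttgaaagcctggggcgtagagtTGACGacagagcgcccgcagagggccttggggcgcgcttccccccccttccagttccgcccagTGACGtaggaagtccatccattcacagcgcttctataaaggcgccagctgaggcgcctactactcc
Npas4: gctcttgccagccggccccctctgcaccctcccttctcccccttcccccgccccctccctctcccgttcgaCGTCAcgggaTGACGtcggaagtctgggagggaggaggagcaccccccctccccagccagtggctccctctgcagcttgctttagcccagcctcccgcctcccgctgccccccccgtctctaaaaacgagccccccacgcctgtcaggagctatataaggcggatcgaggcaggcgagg
In Atf3 the core begins 7 bases before the start. In Fos it occurs 129 and 66 bases before the start, and in Npas4 179 and 169 bases before it.

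All 7 members in the table held the core TGACG within 250 bases upstream, in 9 of their 11 windows, against 17.8% of the 32851 windows in the table. That share counts windows and not genes. The Egr2 windows with the core overlap each other and hold the same matches, so they are not separate hits. The full element TGACGTCA, which contains the core on both strands, was in none of the 7 and in 1.55% of all windows. Within those 250 bases the CArG box occurred in Egr2 alone of these 7 members (1.47% of windows). Bases further upstream were not searched, so a motif missing from a window may still lie elsewhere near the gene. An EGR element (GCGNGGGCG, either strand) occurred in Fosb alone of the 7, and in 4.7% of windows. The AP-1 element TGANTCA was in none of the 7 and in 6.75% of windows. Members that separated and members that overlapped both carried the core. A match is a description of the window and not a site of binding.

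Relatives of the members gave smaller differences. Of 18 genes listed as EGR and AP-1 relatives or EGR co-repressors, 16 were tested, 13 had a difference above 0 and 0 were called. The median was 0.14 on the log2 scale. By limma 3 of the 16 had an unadjusted p under 0.05, all higher, against 3.15% of all tested genes in that direction. Groups did not overlap for 4 of the 16 in the higher and 0 in the lower direction, against 7.4% and 7.5% of all tested genes. The small MAF gene Maff was at 0.68 ± 0.20 (limma adjusted p = 0.672), and its values of 153.9, 108.0 and 123.0 intensity units in transgenic samples were above the wild-type 68.5, 65.1 and 63.1. Mafk was at 0.31 ± 0.10 and Jdp2 at 0.21 ± 0.10. Batf, a leucine zipper partner of JUN proteins in immune cells, is among the 3 with an unadjusted p under 0.05 by limma. It was dim in wild type (10.3, 17.9 and 19.1 intensity units). It was well above background on 2 of 3 wild-type arrays, so it was tested only through the transgenic group and its fitted difference is not given. The AP-1 partner Jun had the lowest difference of the list, -0.16.

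Among 50 other immediate early genes, all tested, 35 had a difference above 0, 0 were called by limma (2 had an unadjusted p under 0.05 in the higher and 1 in the lower direction), and the median was 0.06. Zfp36, whose protein degrades inflammatory mRNAs, was at 0.60 ± 0.13 (limma adjusted p = 0.430), with 86.0, 117 and 133 intensity units in wild type and 233, 172 and 204 in transgenic samples. Arl4d was at 0.54 ± 0.20 and Nedd9 at 0.27 ± 0.13. The prostaglandin synthase gene Ptgs2 was at -0.28 ± 0.10. It was dim, and its raw intensities overlapped, at 12.4, 18.1 and 17.0 units in wild type and 14.2, 16.5 and 16.2 in transgenic samples. Groups did not overlap for 2 of the 50 in the higher and 1 in the lower direction, a share no larger than the 7.4% and 7.5% of all tested genes.

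Genes that signal to the members had differences near 0. Of 30 upstream regulators (kinases, CREB and serum response factor partners), 9 were above and 21 below 0, with a median of -0.04 and 0 calls by limma (unadjusted p under 0.05 for 1, lower). The CREB co-activator Crebbp was at -0.23 ± 0.09, the calcineurin subunit Ppp3ca at -0.25 ± 0.11, Camk4 at -0.18 and Mapk3 at 0.15. Late activity-regulated neuronal genes, which immediate early factors are known to act on, gave 12 above and 16 below 0 among 28 tested, with a median of -0.03 and 0 calls by limma (unadjusted p under 0.05 for 1 higher and 3 lower, against 3.15% and 2.71% of all tested genes). The dim Ptgs2, listed above as well, is among these 3. Groups did not overlap for 1 of the 28 in the higher and 5 in the lower direction, against 7.4% and 7.5% of all tested genes. In that list the corticotropin-releasing hormone gene Crh was at -0.97 ± 0.19 (limma adjusted p = 0.299), Trh at -1.62 ± 0.60 and Sorcs3 at 0.25.

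The stress and injury lists, in which Atf3 is a known member, had medians of 0.01 each. Of 22 genes of the integrated stress response, 11 were above and 11 below 0 and 0 were called by limma (2 with an unadjusted p under 0.05, both higher), with Eif2ak2 at 0.39 ± 0.09 and Slc7a11 at 0.27 ± 0.09. The axon injury response without Atf3 gave 10 above and 10 below 0, a median of 0.01 and 0 calls (1 gene with an unadjusted p under 0.05 in each direction). Sprr1a, the keratinocyte envelope gene known from injured neurons, is the gene counted there in the higher direction. It was well above background on only 1 wild-type array, so it entered the test only through the transgenic group. Its fitted difference is not given.

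**Figure D4:**
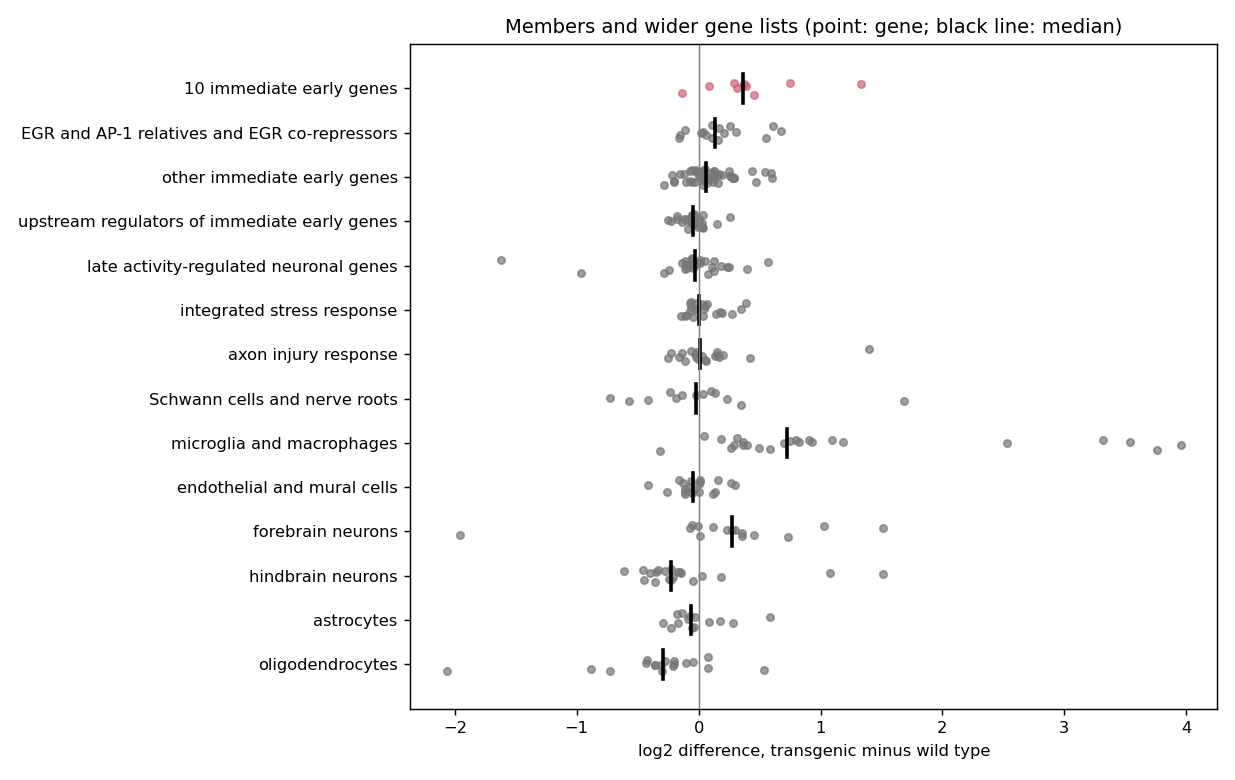
Difference of every tested gene (log2, transgenic minus wild type, 1 point per gene) for the 10 immediate early genes and the 13 wider lists, with a black line at each median. The medians are 0.37 for the 10 genes, 0.06 for the other immediate early genes and 0.72 for microglia and macrophages.

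Some markers of microglia and macrophages differed between the genotypes on the same arrays. Of 25 listed, 24 were tested (Spi1 was not), 23 had a difference above 0, and 3 passed the test. These were the phagocytic receptor gene Clec7a (3.32 ± 0.19, limma adjusted p = 0.0159), the chemokine gene Ccl3 and the integrin gene Itgax. Ccl3 and Itgax were each well above background on 1 of 3 wild-type arrays. Both entered the test only through the transgenic group, in which they are high, so their fitted differences are not given. Of the 24, 20 were well above background on all 6 arrays. Groups did not overlap for 17 of the 24 in the higher and 1 in the lower direction, against 7.4% and 7.5% of all tested genes. The 17 include Ccl3 and Itgax. The mean log2 level of the list was -0.23 to 0.03 in wild-type and 1.004 to 1.19 in transgenic samples, while the summed level, which the brightest markers set, overlapped at 191.1 to 340.1 against 298.9 to 328.6. The part of these cells in the levels of Egr2, Atf3 and the other members was not tested.

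Other cell markers were measured beside them. Oligodendrocyte markers had 15 of 18 differences below 0 with a median of -0.29, and the protease gene Klk6 fell (-2.06 ± 0.12, limma adjusted p = 0.0159). Groups did not overlap for 1 of the 18 in the higher and 8 in the lower direction, against 7.4% and 7.5% of all tested genes. Astrocyte markers had a median of -0.07, with Gfap at 0.59 ± 0.11 (limma adjusted p = 0.277), and endothelial and mural markers one of -0.05. Schwann cell and nerve root markers, which matter for Egr2, had 13 of 18 tested (Pmp2, Dhh, Cldn19, Scn7a and Col28a1 were not), 6 above and 7 below 0, and a summed level of 16.0 to 17.6 in wild-type and 12.7 to 13.9 in transgenic samples. The mean log2 level of that list, in which every marker counts alike, overlapped at -1.76 to -1.68 in wild-type and -1.84 to -1.60 in transgenic samples. In that list Pmp22 was at -0.42 ± 0.08 and Foxd3 at -0.57 ± 0.12. Hindbrain neuron markers, each of the 20 being measurable in every sample, had a median difference of -0.23, with 16 below 0. Of these 20, groups did not overlap for 0 in the higher and 5 in the lower direction. Forebrain neuron markers had a median of 0.27, with Emx1, Dlx1, Dlx6os1 and Fezf2 not tested. Of the 15 forebrain markers tested, 12 were also well above background on all 6 arrays. Being measurable thus does not tell the regions apart, and the tissue label is taken as given. How far the makeup of the dissection bears on the members was not tested.

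The genes whose profile over the 6 arrays was nearest to a member were sought among 17072 named genes, by the root mean square distance of log2 levels after each gene's mean was subtracted. For Egr2 these were Rasal3 (0.126), Gpr65 (0.138) and Lyz1 (0.139), with differences between genotypes of 1.24, 1.498 and 1.17. RASAL3 damps Ras signalling in blood cells, GPR65 is an acid-sensing receptor of immune cells, and Lyz1 is a lysozyme gene whose near-identical paralogue Lyz2 its probe may also read. For Atf3 the nearest were the microglial receptor gene Trem2 (0.0399), Gstm5 (0.0449) and Gbp3 (0.0708), with differences of 0.75, 0.69 and 0.65. For Fos they were Eqtn (0.0757), Sln (0.0963) and Adra1a (0.124), all low in wild-type replicate 3 as Fos was. A near profile over 6 arrays in 2 genotypes is a description of those arrays only.

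**Figure D5:**
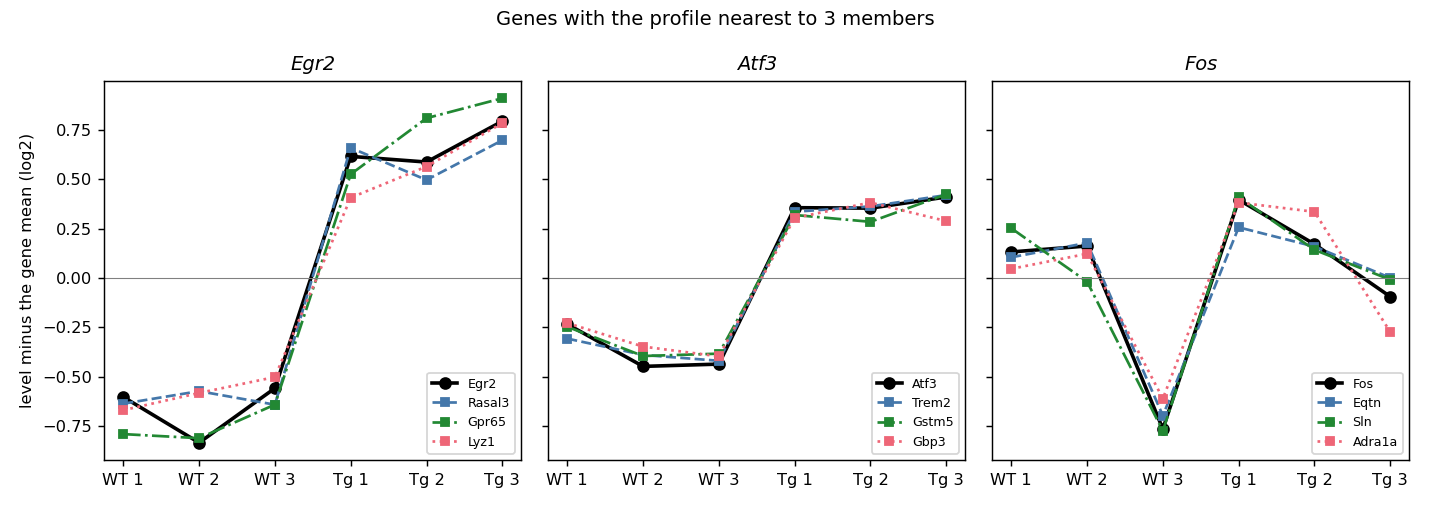
Level of Egr2, Atf3 and Fos (black) and of the 3 genes with the nearest profile on each array, in log2 units minus each gene's mean; lines join wild-type (WT) and transgenic (Tg) samples only to guide the eye, since replicates have no order. Egr2 and Atf3 and their neighbours step between genotypes, while Fos and its neighbours share the low value in wild-type replicate 3.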

How the data were processed

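Total RNA (TRIzol, per the labels' protocols) of 3 wild-type and 3 transgenic samples was labelled with Cy3 and read on Agilent mouse arrays. Per the file headers, Feature Extraction 10.7.1.1 gave background-subtracted intensity values per spot, with probe positions on mm9. The submitters' processing notes give version 9.5.1.1 instead. The deposited value table also holds intensity values. At least 99.986% of each column equalled a quantile normalization of the scanner signals within 0.01 log2, with a median of 59.9 and no centring, and it was used as an alternative only.

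From these, log2 signals minus the log2 of each array's 75th percentile were computed. Control spots and the 39 to 84 outlier spots of an array were dropped and repeated spots averaged; none was saturated. A probe was tested (38463 were) if every array of either genotype had it well above background, with the probe of highest mean level standing for a gene (24932 genes). Names came from RefSeq by accession (32994 probes), symbol (10224) or synonym (520), else from the files (12867). Genotypes were compared with limma 3.58.1 (R 4.3.3, lmFit and eBayes), with Benjamini-Hochberg adjustment over all genes and calls at an adjusted p under 0.05. The fit was tested on simulated data. The number of arrays limits the precision.

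The members and lists were chosen with earlier results of these data known. The text names the 10 members, up to 4 genes per wider list with the smallest p (some of them are not reported here), and for Egr2, Atf3 and Fos the 3 genes of nearest profile (named in the reference, well above background on all 6 arrays). Jun and the untested markers were named after their values were seen. The alternatives tried were normexp, quantile and median scaling, 2 other filters on dim probes, the value table, blocks for the slide and for the leading digit of the title, an intensity trend, array weights, averaged probes, another threshold and each sample left out.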

Additional observations from a re-analysis of the deposited data

How the results depend on the processing

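By limma 11 genes were called (9 higher, 2 lower). Normexp gave 29 (19 and 10), no filter on dim probes 6 (5 and 1), the filter on all 6 arrays 23 (17 and 6), slide as a block 7 (6 and 1), the intensity trend 27 (20 and 7), array weights 95 (67 and 28), averaged probes 24 (19 and 5), an adjusted p under 0.1 38 (27 and 11), and normexp at an offset of 10, a setting chosen after seeing the data, 28. Leaving out 1 sample gave 0 to 6 calls. The 0 came without transgenic replicate 2, with 1208 genes at an unadjusted p under 0.05. Of the 10 members, 0 were called (6 at an unadjusted p under 0.05, limma). The filter on all 6 arrays, averaged probes and an adjusted p under 0.1 each called 1 (Egr2), array weights called 2 (Egr2 and Atf3), and leaving out any 1 sample called 0. The filter and the averaging left the values of Egr2 unchanged and moved its adjusted p through the other genes fitted. The wider lists held 4 called genes (Ccl3, Clec7a, Itgax and Klk6), against 9 under normexp, 9 under the intensity trend, 13 under array weights, 8 at an adjusted p under 0.1, 7 with normexp at an offset of 10 and 0 to 3 with 1 sample left out. Of the 4, Ccl3 and Itgax were tested only through the transgenic group. The members' median of 0.37 stayed between 0.26 and 0.42 over the alternatives. Of the members, Arc alone turned, with differences of -0.054 to 0.21 when 1 sample was left out and the negative value without wild-type replicate 2 (limma adjusted p = 0.871). The limma adjusted p ran from 0.0138 to 0.496 for Egr2 and from 0.0138 to 0.541 for Atf3. The cause of these shifts was not tested, except that an offset added to dim signals shrinks their log2 differences by construction. Egr2, Egr3, Atf3 and Fosb are dim, at or below 133.8 intensity units on every array. No paired analysis was possible because the replicate numbers only name the samples and the labels tie no wild-type to a transgenic sample. A block on the leading digit of the title set replicate 1 of each genotype apart from the remaining samples. It called 11 genes and 0 members, with a limma adjusted p of 0.108 for Egr2.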
